A study of Mus musculus with 38 samples.

Results

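Base-unpairing regions (BURs) are short, AT-rich stretches of genomic DNA that separate readily into single strands under negative superhelical strain and that the nuclear protein SATB1 binds directly. Here the BURs that lie among the vomeronasal receptor genes of the mouse were described. A BUR was counted as a member when its midpoint lay within 50 kb of a protein-coding gene named Vmn1r or Vmn2r and not within 50 kb of an olfactory receptor (Olfr) gene. By this rule 2576 of the 219828 BURs on chromosomes 1 to 19 were members, out of 238380 BURs on all chromosomes of the map. Of these, 988 lay near Vmn1r genes only, 1537 near Vmn2r genes only and 51 near genes of both families.

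Vomeronasal receptors are G-protein-coupled receptors of the vomeronasal organ, which senses pheromones and other social odours. The Vmn1r receptors are encoded mostly by genes with an undivided coding exon, whereas Vmn2r receptors carry a long extracellular domain encoded by several exons. Both families lie in tandem arrays that arose by repeated gene duplication, and each sensory neuron expresses very few of the genes. Thymus, brain and skin are not sites where these receptors are known to act, so the members were examined as DNA and not as expressed genes.

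The BUR map was made from sonicated C57BL/6 thymus DNA that was bound in vitro by SATB1 protein, and it was a single library. It was set against 10 ChIP lists from C57BL/6 mice labelled Satb1 wild-type. For 6 of them, SATB1 was precipitated with the antibody 1583D by urea ChIP-seq, with 2 replicates each from thymus (thymocytes in the study's methods), brain and skin. This method spins fixed chromatin through urea, which removes proteins that are not crosslinked to DNA themselves. Another 2 came from standard ChIP-seq of thymus SATB1, with antibody ab109122 in replicate 1 and 1583D in replicate 2. The remaining 2 came from urea ChIP-seq of the architectural protein CTCF, 1 list in thymus and 1 in skin. The labels gave an age of 5 and 6 weeks for the brain replicates and postnatal day 13 for thymus and skin, but the titles of standard replicate 1 and of the thymus CTCF list gave 6 weeks, and the protocols and the study's methods gave other ages for brain and skin, so age was not used. The study states that its replicates were cells from different animals, and the labels do not say so for each pair. Those of thymus differed in antibody volume (4 and 2 µl), those of brain in PCR cycles (10 and 12) and those of skin in sonication (55 and 60 s), so the spread between replicates also holds these differences. The tissue labels could not be checked against marker genes, because the lists hold positions and not expression.

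The 327 vomeronasal genes, 203 of them Vmn1r and 124 Vmn2r, fell into 29 clusters when neighbours at most 500 kb apart were joined. Of these genes 8 have a -ps (pseudogene) symbol, although they are annotated as protein-coding. Clusters are named here by their chromosome and a letter for their order along it, and 21 of them held at least 20 members. Coordinates are on NCBIM37 (mm9). The sequences shown next are windows of 160 bases on the plus strand, cut from members on which the results turn, with the longest stretch that lacks either C or G in capitals. Clusters of sequence in which 1 strand carries no G are a known feature of BURs.

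The first BUR was the member bound in all 6 urea SATB1 lists with the highest mean ChIP fold enrichment, and the second, near Vmn1r5, held the longest G-free stretch among the 6 highest such members (98 bases).
Near Vmn2r105, chr17:20378115-20378274: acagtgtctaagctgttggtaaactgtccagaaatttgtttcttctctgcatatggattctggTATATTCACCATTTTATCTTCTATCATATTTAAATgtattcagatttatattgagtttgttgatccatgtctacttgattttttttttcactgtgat
Near Vmn1r5, chr6:56933167-56933326: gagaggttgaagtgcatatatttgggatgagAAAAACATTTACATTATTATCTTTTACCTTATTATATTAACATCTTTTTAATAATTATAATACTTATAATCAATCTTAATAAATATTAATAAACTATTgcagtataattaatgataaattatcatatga

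The next pair came from a BUR that overlaps 91 coding bases of Vmn2r25 and was bound in brain, of which the window shown holds no coding base, and from an intron of cluster 7D near Vmn2r55, where the in vitro fold enrichment was the highest of all members outside the ChIP lists.
Beside a Vmn2r25 exon, chr6:123801583-123801742: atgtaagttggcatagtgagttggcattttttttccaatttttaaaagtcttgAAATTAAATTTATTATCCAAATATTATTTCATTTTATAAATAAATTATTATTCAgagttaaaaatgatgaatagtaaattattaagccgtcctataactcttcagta
Near Vmn2r55, chr7:13254693-13254852: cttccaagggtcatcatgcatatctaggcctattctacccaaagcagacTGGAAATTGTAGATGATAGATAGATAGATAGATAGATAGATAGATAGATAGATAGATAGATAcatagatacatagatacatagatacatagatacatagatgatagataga

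The last 4 windows show a pair of copies each from 2 families of near-identical BURs in the large Vmn1r array of chromosome 7, called family 4 and family 5 here. In each family the upper copy was bound in all 6 urea SATB1 lists and the lower copy in both skin lists and in no thymocyte or brain list.
Family 4, chr7:21874441-21874600: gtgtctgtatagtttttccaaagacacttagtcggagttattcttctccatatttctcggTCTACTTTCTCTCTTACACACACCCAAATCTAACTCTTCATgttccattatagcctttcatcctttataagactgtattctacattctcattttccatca
Family 4, chr7:22608551-22608710: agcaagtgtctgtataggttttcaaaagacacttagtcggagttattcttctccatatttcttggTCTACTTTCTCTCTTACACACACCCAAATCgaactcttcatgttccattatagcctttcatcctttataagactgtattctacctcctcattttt
Family 5, chr7:22003792-22003951: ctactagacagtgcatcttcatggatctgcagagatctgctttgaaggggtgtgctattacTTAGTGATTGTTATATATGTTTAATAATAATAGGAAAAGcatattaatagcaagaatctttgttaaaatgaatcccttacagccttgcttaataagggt
Family 5, chr7:22378074-22378233: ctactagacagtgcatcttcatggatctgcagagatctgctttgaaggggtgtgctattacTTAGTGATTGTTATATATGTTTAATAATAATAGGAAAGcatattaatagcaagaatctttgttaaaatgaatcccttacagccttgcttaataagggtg

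The windows around vomeronasal genes held more BURs per Mb than the genome over all BURs, but fewer when only BURs of mostly unique sequence were counted. Over all BURs they held 118.6 BURs per Mb of sequence (exact Poisson 95% interval 114.1 to 123.3, over 21.7 Mb), against 91.8 over chromosomes 1 to 19 and 73.4 in the windows around all protein-coding genes. Windows around olfactory receptor genes, the most similar gene family, held 137.7 (133.8 to 141.7). The intervals cover counting error only, because the map had no replicate. Within the vomeronasal windows the families differed: 136.5 BURs per Mb around Vmn2r genes (129.8 to 143.5) and 97.3 around Vmn1r genes (91.3 to 103.6). Vmn2r windows were thus about as dense as olfactory windows, and the interval of Vmn1r windows included the genome's density. The AT content of the windows ran in the same order for the vomeronasal families, at 61.6% around Vmn2r genes and 59.9% around Vmn1r genes, with 60.6% in olfactory windows and 58.1% over the chromosomes, and its part in the density was not tested. BURs covered 6.43% of the Vmn2r windows, 4.59% of the Vmn1r windows and 4.25% of chromosomes 1 to 19. With only the BURs in which at least 90% of 50-base stretches occur once in the reference (chosen once the values were known), the density was 67.04 per Mb in vomeronasal windows (63.6 to 70.6), 82.4 over chromosomes 1 to 19 and 120.3 in olfactory windows. It was then 83.4 in Vmn2r windows (78.2 to 88.9), whose interval included the genome's value, and 47.7 in Vmn1r windows (43.5 to 52.1). The vomeronasal windows and the Vmn1r windows thus lay below the genome in this count, while the order of the families was kept. The lengths were those of the full windows and not of their unique sequence. These values are therefore not densities within unique sequence, and such a density was not computed.

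Density varied more than 4-fold between clusters, beyond the counting intervals of its ends. The sparsest of the 21 larger clusters was 6C (chr6:89664197-90220047), with 15 Vmn1r genes, 27 members and 41.2 BURs per Mb (27.1 to 59.9). The densest was 7I (chr7:92088679-93394711), with 12 Vmn2r genes, 190 members and 187.4 per Mb (161.7 to 216.1). Clusters made up of Vmn1r genes alone ranged from 6C through 13A (chr13:22179747-23342192) at 79.4, 6B (chr6:66502177-66755326) at 99.1 and 7F (chr7:20686507-24840710) at 104.3 to 6A (chr6:56906460-58422872) at 138.1 BURs per Mb. The densest of these, 6A, exceeded the genome beyond its counting interval (117.6 to 161.1).

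Clusters made up of Vmn2r genes alone were mostly denser. The lowest was 13B (chr13:66045463-66787891) at 70.5 BURs per Mb, whose 4 genes all have -ps symbols. After 13B followed 10A (chr10:78611542-78954899) at 103.8, 7H (chr7:48655102-50189159) at 111.4 and 3A (chr3:63885564-64648687) at 113.6. Then came 5A (chr5:109226212-109882406) at 120.6, 7B (chr7:7184038-7855173) at 122.7, 10B (chr10:129822372-129934435) at 127.3, 6D (chr6:123258351-124181802) at 133.4 and 17B (chr17:22684908-23616564) at 137.5. Above these stood 14A (chr14:52030676-52080968) at 139.7 and 7J (chr7:93943651-94186478) at 165.0, the neighbour of 7I. Counting all BURs, all but 13B of the Vmn2r-only clusters of this size thus had a density above that of the genome, although the counting intervals of 10A, 7H, 3A, 10B and 14A reached below it. The clusters with genes of both families spread over the same range, with 76.1 in 7A (chr7:5097820-5962612), 96.8 in 7D (chr7:12254948-13805638), 136.8 in 7C (chr7:8954257-11334887) and 151.0 in 17A (chr17:17840905-21451873). The last, with 13 Vmn1r and 22 Vmn2r genes, held the most members of any cluster, 412. The 8 clusters with fewer than 20 members each held 8 to 19 of them, at 41.6 (7E) to 167.7 BURs per Mb (4A). Among the larger Vmn2r-only clusters, the share of members with at least 90% unique 50-base stretches varied widely. It was 0% in 7B and 13B, 43.5% in 3A and 52.0% in 6D, and up to 96.4% in 7J. Densities by cluster with such BURs alone were not computed.

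**Figure D1:**
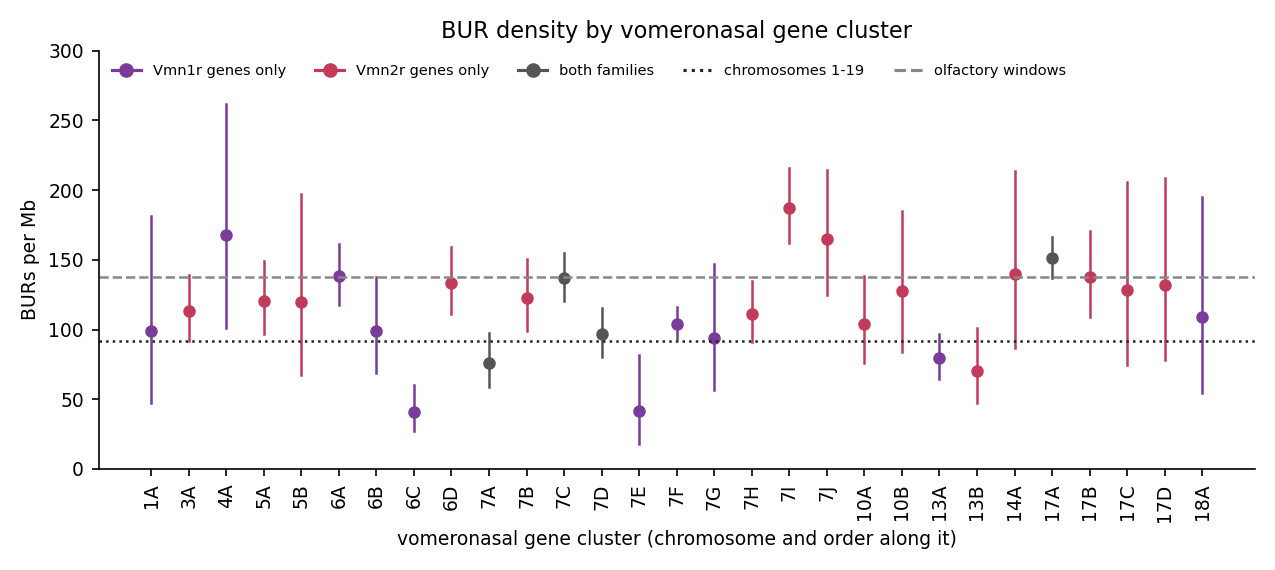
BUR density (BURs per Mb of sequence, y axis) in each of the 29 vomeronasal gene clusters (x axis), with points coloured by the family of their genes and lines for the exact Poisson 95% interval. The dotted line marks chromosomes 1 to 19 (91.8) and the dashed line olfactory windows (137.7); 6C lies lowest among clusters of at least 20 members and 7I highest.

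Members were concentrated close to the genes' start sites. A BUR midpoint lay within 2 kb of the annotated start of 134 of 203 Vmn1r genes (66.0%) and of 94 of 124 Vmn2r genes (75.8%), compared with 783 of 1243 Olfr genes (63.0%) and 3521 of 21418 protein-coding genes (16.4%). The families differed in where the BUR sat. Around Vmn1r genes the share of genes with a BUR at a given position peaked at 34.5% at 0.5 kb upstream of the start, and still reached 16.5% there without the genes of 7F. Around Vmn2r genes it was 0% at the start itself and peaked at 25.8% at 2 kb downstream, inside the gene. Olfr genes resembled Vmn1r genes in position, with 16.8% at 0.5 kb upstream, whereas the highest share over all protein-coding genes was 3.24%. Genes of a tandem array share sequence, so these genes are not independent of each other.

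**Figure D2:**
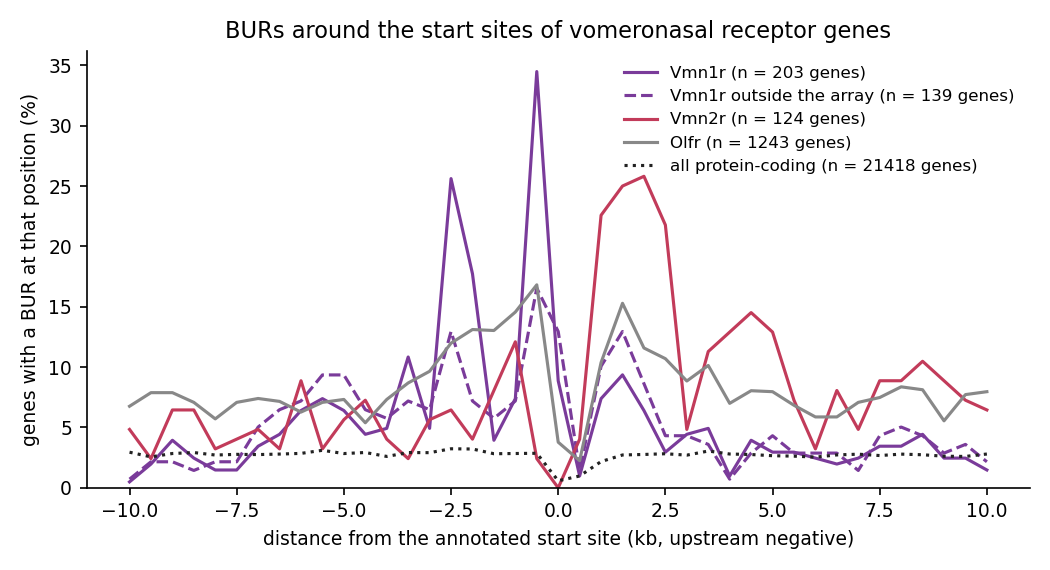
Share of genes with a BUR (%, y axis) at each distance from the annotated start site (kb, upstream negative, x axis), for Vmn1r genes with and without the 64-gene array, Vmn2r genes, Olfr genes and all protein-coding genes. Vmn1r genes peak just upstream of the start (34.5% at -0.5 kb) and Vmn2r genes downstream of it (25.8% at 2 kb).

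Every vomeronasal gene had at least 1 member within its body and 50 kb flanks. Vmn1r genes had from 1 to 27 (median 10) and Vmn2r genes from 6 to 29 (median 17). Vmn2r91 and Vmn2r94, both in 17A, had the most, at 29 each, followed by a tie at 27 of Vmn1r112 in 7F, Vmn2r100 and Vmn2r106 in 17A and Vmn2r72-ps in 7I. Vmn1r112 is annotated over chr7:21356583-21557259, and 17 of its 27 members lay in this body. Counts per gene were not scaled by the length of body and flanks, which differs between genes. The fewest were at Vmn1r42 and Vmn1r43, neighbours in 6C with 1 each, and at Vmn1r173 with 2.

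The place of the members relative to genes differed between the families. Of all members 68.2% were intergenic, 27.1% intronic and 4.74% overlapped an exon (all other BURs 65.6%, 31.0% and 3.41%). Near Vmn1r genes 89.4% were intergenic and 6.07% intronic, close to the 88.0% and 7.03% of olfactory BURs. Near Vmn2r genes 54.3% were intergenic and 40.8% intronic. A coding exon of a vomeronasal gene was overlapped by 78 members (3.03%), 52 of them at Vmn2r and 26 at Vmn1r genes, in 73 genes. For other BURs the overlap with coding exons was not computed.

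In sequence and in vitro binding the members resembled other BURs, with an exception in how often their sequence recurs. Their median length was 445 bp against 440 in the 217252 other BURs, their median AT content 70.9% against 70.6%, and their longest stretch free of C or G 41 against 43 bases. Their median in vitro fold enrichment was 5.43 against 5.97. Each BUR was cut into all its stretches of 50 bases, and each stretch was called unique when it occurred once in the reference on either strand. No stretch was unique in 359 members (13.9%), compared with 1476 other BURs (0.679%) and 11 of 4693 olfactory BURs (0.234%). At least 90% of stretches were unique in 56.5% of members, 87.4% of olfactory BURs and 90.1% of all others. The least unique clusters were 7F, with a median of 0% and 189 of 342 members without any unique stretch, 13B (9.51%), 7B (11.4%) and 7C (23.1%). In the other 17 larger clusters the median was at least 77.5%.

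In the occupancy data, a BUR was called bound in a list when it overlapped a peak by at least 1 bp. In thymocytes, 225 members were bound in replicate 1 (8.73%), where 14.6% of all BURs of chromosomes 1 to 19 were, and 199 members in replicate 2 (7.73%), where 12.9% of all BURs were. In brain, 656 members were bound in replicate 1 (25.5%, all BURs 37.4%) and 610 in replicate 2 (23.7%, all BURs 34.5%). In skin, 106 members were bound in replicate 1 (4.11%, all BURs 3.68%) and 108 in replicate 2 (4.19%, all BURs 3.61%). Members were thus below the background in thymocytes and brain and slightly above it in skin. The means were 8.23% ± 0.714 in thymocytes, 24.6% ± 1.26 in brain and 4.15% ± 0.0549 in skin (SD, n = 2 lists each). Bound in both lists of a tissue were 172 members in thymocytes (6.68%, all BURs 11.3%), 536 in brain (20.8%, all BURs 31.6%) and 93 in skin (3.61%, all BURs 3.09%).

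Standard ChIP-seq and CTCF lists hardly touched the members. Standard SATB1 peaks overlapped 5 members in replicate 1 (0.194%, all BURs 0.664%) and 6 in replicate 2 (0.233%, all BURs 0.534%). CTCF peaks overlapped 3 members in thymus (0.116%, all BURs 0.231%), each of which also overlapped a skin CTCF peak, and 6 in skin (0.233%, all BURs 0.534%). In all 14 members overlapped a standard SATB1 or CTCF peak, and 8 of these were also in a urea SATB1 list. Of the 2576 members 1787 (69.4%) were bound in none of the 10 lists, compared with 58.3% of the other BURs, and 48 members (1.86%) were bound in all 6 urea SATB1 lists, compared with 2.87% of other BURs.

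The percentage of members bound by SATB1 followed the order skin, thymocytes, brain, and the replicates of different tissues did not overlap. Of the pairs of lists from different tissues, 12 of 12 stood in this order, and the Jonckheere-Terpstra statistic, which counts them, gave p = 0.0111 by exact permutation (one-sided), the smallest p that 90 arrangements of the labels can give. The order was known from earlier results of these data. It was also the order of the number of peaks in the lists, which ran from 9976 in skin replicate 2 to 112453 in brain replicate 1 on chromosomes 1 to 19. When every list was reduced to its 10846 strongest peaks, 0 of 12 pairs stood in this order (same exact permutation test, p = 1), with means of 2.27% in brain, 2.45% in thymocytes and 4.10% in skin.

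Compared with all other BURs within the same list, members had log2 ratios of the bound percentages of -0.75 and -0.75 in the thymocyte lists, -0.56 and -0.55 in the brain lists and 0.17 and 0.22 in the skin lists. The mean was -0.37 ± 0.44 (SD, n = 6 lists), and the exact two-sided sign-flip permutation test gave p = 0.125 (0.188 after Benjamini-Hochberg adjustment over 3 comparisons), so that the difference over the 6 lists did not pass the test. It passed, with 6 of 6 lists below 0 and an adjusted p of 0.0469 by the same exact permutation test, in 3 planned settings. These were quartiles of in vitro fold enrichment (-0.87) or of BUR length (-0.75), and the 21 clusters of at least 20 members weighted equally (-0.47). It did not pass in the other 12 of 15 planned settings with no replicate left out. Among them were quartiles of AT content (-0.38, exact permutation test, adjusted p = 0.125). With a replicate left out it could not pass, because 5 lists give no p under 0.0625. The test counts the 2 replicates of a tissue as separate lists. With the mean of each tissue instead, among the settings that did not pass, the adjusted p was 0.75 (exact permutation test). No p under 0.25 can come from 3 tissue means. Against olfactory BURs, of which 15.4% and 13.3% were bound in thymocytes, 39.7% and 36.4% in brain and 3.69% and 3.77% in skin, the mean log2 ratio was -0.43 ± 0.46 (exact permutation test, p = 0.125, adjusted 0.188), with the same 4 of 6 lists below 0. It passed in the same 3 settings (-0.98, -0.69 and -0.53, exact permutation test, adjusted p = 0.0469 each) and not in the other 11 of 14. In both comparisons the lists above 0 were those of skin.

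Between the receptor families, Vmn1r members were bound at 7.49% and 6.98% in thymocytes, 21.4% and 20.6% in brain and 6.28% in each skin list. For Vmn2r members the values were 9.43% and 8.33%, 28.2% and 25.4%, and 2.86% and 2.99%. Vmn2r members had the higher percentage in the 4 thymocyte and brain lists and Vmn1r members in both skin lists, and the mean log2 ratio of Vmn1r to Vmn2r of 0.15 ± 0.74 did not differ from 0 by the exact permutation test (p = 0.562, adjusted 0.562).

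The skin values rested on 1 cluster. The array 7F, with 64 Vmn1r genes from Vmn1r91 to Vmn1r183, had 49 and 48 of its 342 members bound in skin (14.3% and 14.0%), 23 and 27 in brain (6.73% and 7.89%) and 14 and 14 in thymocytes (4.09% each). Without it, 2.55% and 2.69% of the remaining 2234 members were bound in skin, 28.3% and 26.1% in brain and 9.44% and 8.28% in thymocytes. The mean log2 ratio was then -0.51 against other BURs and -0.56 against olfactory BURs, with 6 of 6 lists below 0 in each, and that of Vmn1r to Vmn2r members turned to -0.14. The array was left out because of its skin values, so these ratios are a description without a test.

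Among the other larger clusters, brain was the highest tissue in all but 13B, and 17 of the 21 held the order brain, thymocytes, skin. The highest mean brain occupancy was 45.9% in 5A, followed by 41.4% in 6B, 40.0% in 7I, 36.5% in 17A, 35.8% in 17B and 33.6% in 6A. In the middle stood 6D (30.9%), 10B (29.6%), 14A (28.6%), 7A (27.0%), 7H (26.0%), 7D (22.95%), 7J (22.3%) and 3A (21.7%). The lowest among clusters of mostly unique sequence were 13A (18.6%), 6C (18.5%) and 10A (18.5%), and those with little unique sequence had 11.4% in 7C, 7.31% in 7F, 3.45% in 13B and 2.72% in 7B. Thymocyte means ran from 1.09% in 7B to 16.9% in 5A, with 13.0% in 6C, 12.5% in 7H, 11.9% in 14A and 17A and 11.8% in 7I. Skin means ran from 0% in 10B to 4.94% in 17B in the clusters of mostly unique sequence, and reached 10.3% in 13B and 14.2% in 7F.

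**Figure D3:**
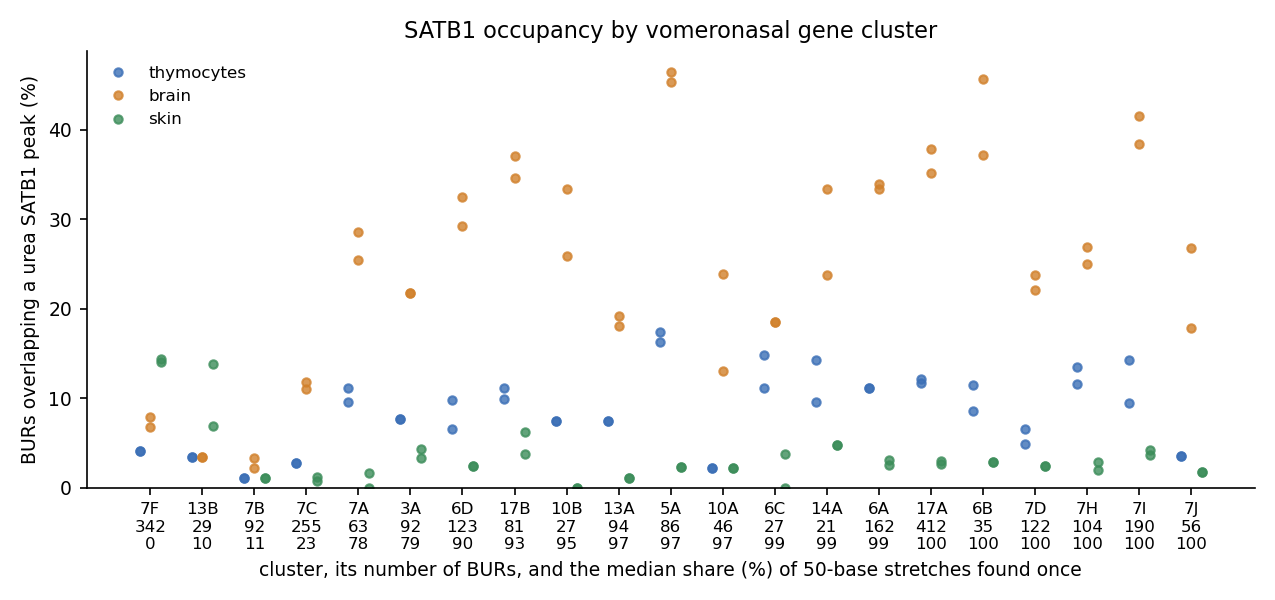
Members bound by SATB1 (%, y axis) in each vomeronasal gene cluster of at least 20 members (x axis, ordered by the median unique share, with the number of members and that share below), with a point for each urea SATB1 list, coloured by tissue. Brain is highest in most clusters (up to a mean of 45.9% in 5A), while in 7F and 13B skin is highest (means 14.2% and 10.3%).

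Occupancy of members moved upward with the share of unique sequence in thymocytes and brain, and downward in skin through the array 7F. Of the 359 members without a unique stretch, 0 were bound in either thymocyte list and 2 in each brain list (0.557%), but 37 and 34 in the skin lists (10.3% and 9.47%), 33 of them in each list from 7F. Among the 375 members with a unique share of up to 50%, 3.47% and 4.00% were bound in thymocytes, 7.47% and 7.20% in brain and 5.07% and 5.33% in skin. Among the 1456 members with at least 90% unique stretches the values were 12.2% and 10.4%, 36.7% and 33.9%, and 2.40% and 2.61%. Outside 7F, skin did not fall over the classes: the means were 1.47% without a unique stretch, 2.17% at up to 50%, 3.77% between 50% and 90%, and 2.55% at 90% or more. Among all other BURs, of the 1476 without a unique stretch 0 were bound in either thymocyte list and 20 and 15 in brain, while 52 and 56 were bound in skin (3.52% and 3.79%), close to the 3.71% and 3.63% of those with at least 90% unique stretches.

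The lists themselves differed in the same way. Peaks without a unique 50-base stretch numbered 0 in both thymocyte lists, 41 and 34 in the brain lists, and 137 in each skin list (1.33% and 1.37% of their peaks). They numbered 454 and 186 in the standard SATB1 lists, 0 in the thymus CTCF list and 225 in the skin CTCF list. The study's methods state that reads with unique matches were kept. How reads with several matches were treated in each list was not tested. The thymus lists were not alike in this, with 0 such peaks in the urea lists and 454 and 186 in the standard lists, so the presence of such peaks did not follow tissue alone. Among the urea SATB1 lists, both replicates of a tissue were alike, and the part of read treatment in the skin values cannot be told apart from tissue.

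Restricted to BURs with at least 90% unique stretches, members were bound less often than others in 6 of 6 lists (mean log2 ratio -0.35). They were also bound less often than olfactory BURs (-0.37), again in 6 of 6 lists. Within the members, Vmn1r BURs were bound less often than Vmn2r BURs in 6 of 6 lists (-0.59). The restriction was chosen after the data were seen, so these ratios are a description without a test. In brain the difference from other BURs was small, at log2 ratios of -0.13 and -0.13, while it was -0.35 and -0.41 in thymocytes and -0.63 and -0.48 in skin.

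**Figure D4:**
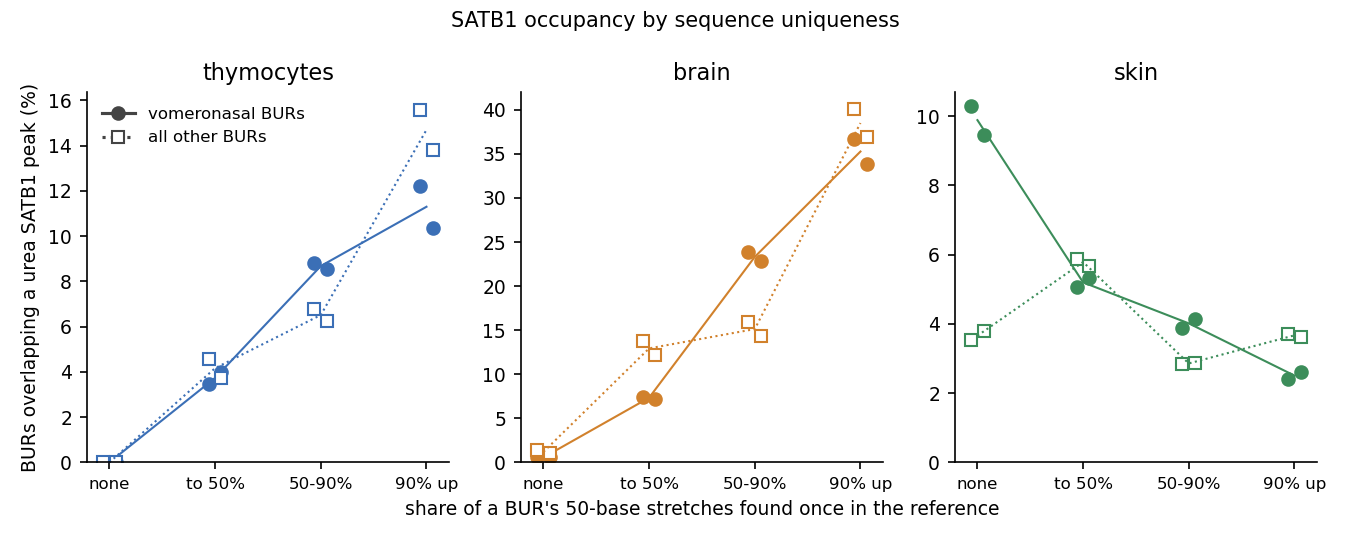
Share of BURs bound by SATB1 (%, y axis) in 4 classes of unique 50-base stretches (x axis), for members and for other BURs in thymocytes, brain and skin, with points for single lists and lines through their means. Thymocyte and brain occupancy of members is at or near 0 in the class without unique sequence and highest in the class of at least 90%, while that of skin is highest in the class without (10.3% and 9.47%).

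Much of the array 7F consisted of copies of the same BURs. By BLAST at 90% identity or more over at least 80% of both lengths, 833 members (32.3%) fell into 191 families of at least 2 copies, and 286 of the 342 members of 7F had such a copy. Of 17 families with at least 10 copies, 10 lay wholly in 7F. The largest, family 1, had 43 copies with a median in vitro fold enrichment of 3.85, and 1 copy was bound, in skin replicate 1. Family 2 had 27 copies with a median in vitro fold enrichment of 5.68, and no copy was bound in any list. Family 3, of 25 copies, lay close upstream of the Vmn1r starts (median -0.51 kb, interquartile range -0.54 to -0.49), and was also unbound in every list.

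The 2 families of the windows shown above were chosen after their values were seen, as the families of at least 10 copies in which every copy was bound in both skin lists. Family 4 had 24 copies (median identity 96.2%, median AT content 69.2%) with in vitro fold enrichments of 10.4 to 15.2. It sat at a fixed place, a median of 2.38 kb upstream of a Vmn1r start (interquartile range -2.42 to -2.34 kb). All 24 copies were bound in both skin lists, with fold enrichments of 13.1 to 19.6 and 10.9 to 16.4, compared with 2 and 3 copies in thymocytes and 2 and 1 in brain. Family 5 had 23 copies (median identity 98.2%, median AT content 64.7%) with in vitro fold enrichments of 9.75 to 20.5. All 23 were bound in skin, with fold enrichments of 12.2 to 20.6 and 11.8 to 20.3, and 6 in each thymocyte and brain list. No stretch was unique in 17 of the 24 copies of family 4 and in 16 of the 23 of family 5. A read of 50 bases from such a copy cannot be assigned to it by sequence. The peaks therefore do not show how many of the copies were bound. These 47 copies accounted for all but 1 of the 48 members of 7F bound in both skin lists, and of the other 295 members of the array 2 and 1 were bound in skin.

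The copies bound in thymocytes or brain were those with more unique sequence. In family 4 the 3 such copies had unique shares of at least 18.9%, and the copies bound in skin only had at most 12.4%. In family 5 the 6 such copies had at least 6.70% and the others at most 3.42%. The family 4 copy printed first above (58.1% unique) had fold enrichments of 11.7 and 17.4 in thymocytes, 9.78 and 13.7 in brain and 15.1 and 15.4 in skin, and its counterpart (0% unique) 14.2 and 12.3 in skin and no peak elsewhere. The family 5 copy printed first (28.4% unique) had 19.3 and 24.1 in thymocytes, 22.6 and 19.4 in brain and 18.9 and 18.5 in skin.

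Along the array the copies were spaced at a median of 109.5 kb in family 4 and 110.8 kb in family 5, and the last copy lay 3314 kb from the start of the first gene. Up to that point 187 of 290 members had no unique stretch, and 3.10% and 4.14% were bound in brain and 16.6% and 16.2% in skin. Beyond it, where the median unique share of the 52 members was 86.6%, 26.9% and 28.8% were bound in brain, 11.5% and 9.62% in thymocytes and 1.92% in each skin list. The point was set by copies chosen for being bound in skin, so the lower skin percentages beyond it follow from that choice. In brain and thymocytes this end of the array had percentages like those of the other clusters. Among the 26 members of 7F with at least 90% unique stretches, 4 were bound in each thymocyte list, 12 and 11 in brain and 0 in skin.

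**Figure D5:**
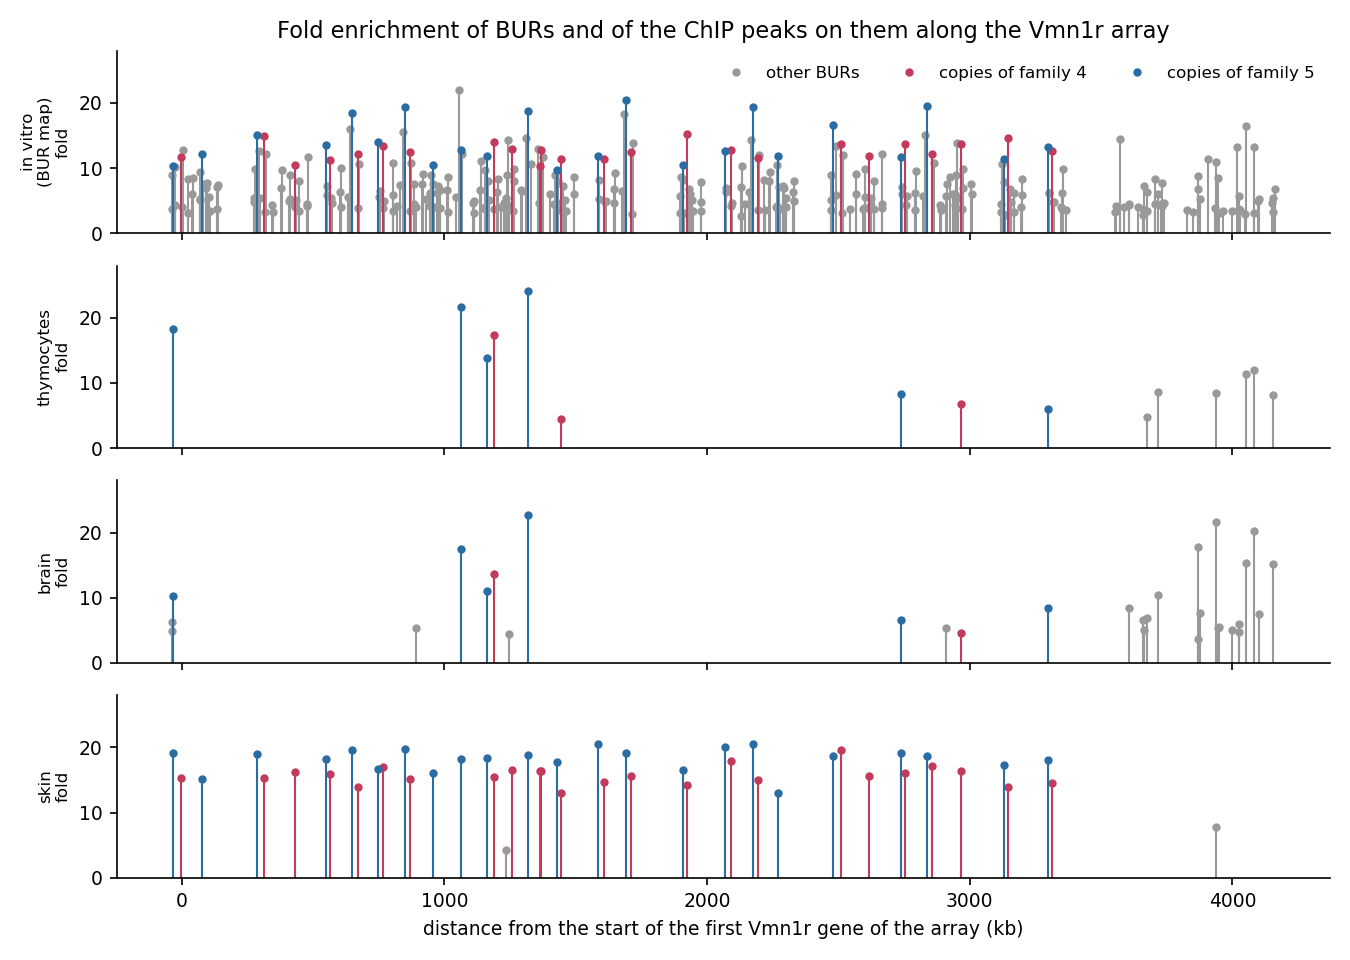
Fold enrichment (y axes) of the members of 7F in the BUR map and of the peaks on them in thymocytes, brain and skin, the higher of both lists, by distance from the first gene start (kb, x axis), with copies of families 4 and 5 in colour. In skin nearly all peaks are on these copies, which recur at median spacings of 109.5 and 110.8 kb up to 3314 kb, while most brain peaks lie beyond that point.

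Most members bound in thymocytes were also bound in brain, but not the reverse. Of 172 members bound in both thymocyte lists 165 (95.9%) were bound in both brain lists, where 97.9% of other BURs were, and without 7F it was 153 of 159 (96.2%). Of the 536 members bound in both brain lists 165 (30.8%) were bound in both thymocyte lists, where 35.1% of other BURs were. Brain lists also held the most peaks. Of the 93 members bound in both skin lists 49 (52.7%) were bound in both brain lists, but this was 41 of 45 (91.1%) without 7F and 8 of 48 (16.7%) within it, compared with 94.5% of other BURs. The thymocyte lists held 93.3% of the skin members without 7F and 18.8% within it.

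Members bound in vivo had higher in vitro fold enrichments than unbound members. Their median in vitro fold enrichment was 9.36 when bound in both thymocyte lists and 5.20 when bound in neither, 7.62 against 4.95 in brain, and 11.5 against 5.29 in skin. They were also longer, with medians of 529 against 436 bp in thymocytes, 514 against 428 in brain and 613 against 439 in skin. Without 7F the skin medians were 9.89 against 5.22 in fold enrichment and 527 against 435 bp in length. The other BURs ran the same way, with median in vitro fold enrichments of 8.74 against 5.60 in thymocytes, 7.27 against 5.35 in brain and 10.3 against 5.84 in skin. By the number of urea SATB1 lists, the median in vitro fold enrichment was 4.85 for the 1793 members in no list, 7.34 for the 343 in 2 lists, 8.35 for the 106 in 4 and 10.2 for the 48 in all 6. These values are a description without a test.

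The 6 members bound in every urea SATB1 list with the highest mean ChIP fold enrichment lay in 17A, 6A, 7F and 13A. The BUR near Vmn2r105 (chr17:20377825-20378327, 6.24 kb upstream of its start) had fold enrichments of 26.3 and 27.6 in thymocytes, 20.2 and 20.8 in brain and 17.3 and 18.96 in skin. The BUR upstream of Vmn1r5 (chr6:56932993-56933521) had 21.1 and 30.1, 24.8 and 23.4, and 16.3 and 15.2. Skin was the lowest tissue in both. In the same cluster, a BUR over the start and coding exon of Vmn1r7 (chr6:56975168-56975632) had 27.4 and 27.7, 17.0 and 18.7, and 9.22 and 10.6. A BUR 41.7 kb from the start of Vmn1r208 in 13A (chr13:22823243-22823728) was more even between tissues, at 22.8 and 21.9 in thymocytes, 14.7 and 16.6 in brain and 19.3 and 18.3 in skin. The remaining 2 were copies of family 5 (chr7:22003628-22004268 and chr7:21748796-21749408). Fold enrichment is measured within each library and is not scaled between them.

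High in vitro binding did not go with occupancy at every member. The highest in vitro fold enrichment, 27.3, was at a BUR near Vmn2r87 in 10B (chr10:129955800-129956333), which overlapped no urea SATB1 peak and only a standard SATB1 peak of replicate 2 (13.7). The next, 26.6 near Vmn2r115 in 17B (chr17:23466523-23467100), was bound in all 6 urea SATB1 lists, at 22.7 and 19.9 in thymocytes, 25.7 and 24.3 in brain and 4.95 and 5.51 in skin, and in skin CTCF (3.56). The third, 23.7 near Vmn1r232 in 17A (chr17:21073071-21073602), overlapped peaks of skin replicate 1 (4.40) and standard replicate 2 (12.9). The 3 highest members bound in no list were the intronic BUR near Vmn2r55 shown above (chr7:13254526-13255100, 22.8), a BUR of 7F near Vmn1r118 (chr7:21740453-21741054, 22.0) and a BUR of 7B near Vmn2r33 (chr7:7492425-7492960, 18.8). Their unique shares were 58.0%, 0% and 0%.

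Of the 78 members over coding exons, 32 (41.0%) were bound in at least 1 urea SATB1 list, where 30.4% of all members and 40.9% of other BURs were. The overlap with coding sequence was partial, for example 189 bases in Vmn2r5, 62 in Vmn2r15, 91 in Vmn2r25, 135 in Vmn2r19 and 100 in Vmn1r7. The strongest in vitro, in Vmn2r5 (chr3:64299658-64300322, fold enrichment 14.2), was unbound and had few unique stretches. The BUR in Vmn2r15 (chr5:109716134-109716672, 13.5) was bound in brain alone, at 19.7 and 9.94, and so was that in Vmn2r25 (chr6:123801463-123801906, 12.7), at 11.3 and 9.06. The BUR in Vmn2r19 (chr6:123259329-123259777, 11.8) was unbound although 99.3% of its stretches were unique.

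The members with peaks of CTCF or standard SATB1 were each in sequence that was at least 94.2% unique among the 5 with the highest fold enrichment. Besides the BURs near Vmn2r87 and Vmn1r232, these were the BUR in 14A near Vmn2r88 (chr14:52004336-52005435), with standard SATB1 fold enrichments of 8.39 and 5.96, that in 17A near Vmn1r235 (chr17:21408710-21409187), with 7.69 and 5.02, and that in 6A near Vmn1r21 (chr6:57809986-57810849). The last carried CTCF peaks of 7.39 in thymus and 7.63 in skin beside brain SATB1 peaks of 7.67 and 3.98. The BUR near Vmn1r235 carried CTCF peaks as well, at 5.46 and 4.02, and was the only member of these 5 in standard SATB1, CTCF and urea SATB1 lists.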

How the data were processed

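Peak lists of 11 libraries were used: the BUR map and the 10 ChIP lists. Per the labels and the study's methods, the authors checked reads with FastQC, mapped them to mm9 with bowtie2 2.3.1 (3 mismatches in the seed, unique matches only) and called peaks in each library with MACS2 2.2.7 at q 0.01. The deposited lists give peak positions, a fold enrichment (a ratio over the local background), −log10 p and q values, and a score, which was not used. They hold no read counts, so depth is unknown, and no interval covers more than counting error. Use of an input library in peak calling is not given in the sources used here.

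Genes were taken from GENCODE vM1. Peaks were overlapped by at least 1 bp, with at least 50% of the BUR and −log10 q of at least 5 as alternatives. Density was computed per Mb without gaps, in windows of 50 kb. Unique 50-base stretches were counted on both strands of the reference, and families came from blastn 2.17.0+. Python 3.11.15, numpy 2.4.6, scipy 1.17.1 and pandas 2.3.3 were used, and the exact permutation tests were checked on simulated data. Replicate numbers followed the sample labels, and for thymus SATB1 the study's supplementary tables give them the other way round. Libraries without a peak list were not used here.

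The members, lists and tests were chosen with earlier results of these data known. Named were all clusters with at least 20 members, the 6 members bound in all 6 urea SATB1 lists with the highest mean fold enrichment, the 3 highest in vitro and the 3 highest of those bound in no list, up to 5 over coding exons and up to 5 with CTCF or standard SATB1 peaks, the largest 2 sequence families, and the 3 genes with the most and the fewest members (ties included). Families 3, 4 and 5 and the limits at 90% unique sequence and at the array 7F were chosen after the values were seen.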

Additional observations from a re-analysis of the deposited data

Results flagged for a closer look

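For 11 clusters, the difference in bound percentage between the cluster and all other members had opposite signs in 2 tissues, in both lists of each. These differences between tissues were not tested. Skin was high and brain low in 2 clusters with little unique sequence: in 7F the cluster was 11.6 percentage points above the other members in skin and 19.9 below in brain, a gap of 31.5 points, and in 13B, where 4 and 2 of 29 members were bound in skin, the gap was 27.6 points.

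The reverse, with brain or thymocytes high and skin low, was seen in 8 clusters when 7F was among the members compared with. The gaps were 24.0 points in 5A, 18.4 in 6B, 15.9 in 17A, 11.1 in 6A, 9.31 in 10B, 8.44 in 6D, 6.27 in 7H and 5.92 in 7A. With 7F left out of the other members, skin was above them in both lists in 17A (0.15 and 0.28 points) and 6B (0.31 and 0.17), of mixed sign in 6A and 7H, and below in both lists in 5A, 6D, 7A and 10B. In 6C, the sparsest cluster, thymocytes were above and brain and skin below the other members, with a gap of 10.9 points between thymocytes and brain, on 27 members of which 3 to 5 were bound in thymocytes and brain.

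The same opposite signs appeared in the comparisons of whole groups, with skin above 0 and thymocytes and brain below. The gap between skin and brain was 12.0 points for members against all other BURs, 13.9 for members against olfactory BURs and 9.15 for Vmn1r against Vmn2r members. Without 7F no such opposite signs remained in the first 2, in which all 6 lists lay below 0. In the third, Vmn1r against Vmn2r members, opposite signs remained without 7F, the other way round. The log2 ratios were then 0.047 and 0.11 in brain, -0.51 and -0.47 in skin, and -0.023 and 0.032 in thymocytes.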

How the results depend on the processing

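Peak lists without counts, 2 replicates a tissue and 1 BUR map limit every comparison, and lists of 3 tissue means cannot give p under 0.25. With lists of equal size the order of the tissues reversed, with 0 of 12 pairs in order. Without 7F the means at equal size were 2.66% in thymocytes, 2.57% in skin and 2.55% in brain. At equal size the log2 ratio of Vmn1r to Vmn2r members turned to -0.060. That ratio was also reversed within quartiles of AT content (-0.22), as a difference in percentage points (-1.37), and, in alternatives added after the data were seen, without 7F (-0.14) and with unique BURs alone (-0.59). Leaving out a replicate gave -0.044 to 0.26 for it, with values below 0 without either skin replicate (-0.044 and -0.031), -0.49 to -0.29 for members against other BURs, -0.54 to -0.35 against olfactory BURs, and 8 of 8 pairs for the order. The differences from other and from olfactory BURs passed the test, which counts replicates as separate lists, in 3 planned settings. These were the 21 clusters of at least 20 members weighted equally (-0.47 and -0.53), and quartiles of in vitro fold enrichment (-0.87 and -0.98) and of BUR length (-0.75 and -0.69). They did not pass in the other 12 of 15 and 11 of 14 planned settings with no replicate left out. With unique BURs alone, added after the data were seen, they were -0.35 and -0.37. Without 7F, left out for its skin values, they were -0.51 and -0.56. Both are given without a test. The cause of these changes was not tested. The density was 125.0 BURs per Mb with windows of 25 kb and 112.4 with 100 kb. With unique BURs alone, counted over the same full window length, it was 67.04, below the genome's 82.4 counted in that way. The replicate numbers do not pair the lists: deviations of same-numbered lists over 21 clusters correlated at 0.25, -0.24 and -0.03, and with the replicate block the order kept 12 of 12 pairs in direction with p = 0.0278. A density on sequence without repeats, and the Vmn1r to Vmn2r ratio within quartiles of in vitro fold enrichment and of length, where a percentage was 0, were not run.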

Other observations

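Occupancy close to start sites was set beside that farther away. Within 2 kb of the start of the nearest gene, among members with at least 90% unique stretches, 33.7% and 28.3% of 92 Vmn1r members were bound in brain, compared with 32.7% and 31.7% of the 404 farther away. For Vmn2r members the values were 37.2% and 38.5% of 78, compared with 38.8% and 35.0% of 882. In thymocytes 17.9% and 14.1% of the 78 Vmn2r members near a start were bound and 13.2% and 11.1% of those farther away. In skin 0 of the 92 and 7 of the 404 Vmn1r members were bound in each list. No test was made of these differences.

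Family 12 was the most widely spread of the families with at least 10 copies, with 14 copies in 9 clusters on 4 chromosomes and a median identity of 93.5%. It was chosen after its values were seen. Its copies had in vitro fold enrichments of 3.52 to 15.2, and 4 and 3 of them were bound in brain, 1 in each thymocyte list and 0 in skin.

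Of the 203 Vmn1r genes 12, and of the 124 Vmn2r genes 13, had no member bound in any urea SATB1 list within their body and 50 kb flanks. The same share was not computed for Olfr or other genes. These counts also take no account of how unique the sequence of the members was.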
